A study of Mus musculus with 6 samples.

Results

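The transcripts described here are 10 genes of the interferon response in mouse liver: Ifit1, Ifit2, Ifit3, Isg15, Usp18, Ifi35 and Irf7, mainly known as targets of type I interferon, and Irf1, Igtp and Ifi47, known as targets of interferon-gamma. They were chosen by name, as every probe set whose platform gene symbol, current or older, is one of these. No cut on their values was used, but earlier results of these data were known when the list was made. All 10 were found among the 8251 genes named on the array, as 11 probe sets, 2 of them for Irf7. RNA came from livers of male C57BL/6J mice aged 8 to 10 weeks, called wild-type in the study's design text. The operation done on 3 mice 1 day before was bile duct ligation (BDL): the common bile duct was tied and cut, which stops bile flow and causes cholestatic injury. The other 3 mice were opened in the same way 1 day earlier without ligation (sham). By their titles the ligated animals are replicates 1, 12 and 3 and the controls replicates 1, 2 and 3, and each mouse had an array of its own. All groups had anaesthesia and laparotomy, and no mouse without surgery was among the samples, so a response to the operation itself cannot be told apart here.

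Interferons are secreted cytokines. Type I interferons act through the receptor chains IFNAR1 and IFNAR2, the kinases JAK1 and TYK2 and a transcription factor complex that contains IRF9 and binds the interferon-stimulated response element (ISRE) in promoters. Interferon-gamma, made by T and NK cells, acts through IFNGR1, IFNGR2, JAK1 and JAK2, and its target promoters hold the gamma-activated site (GAS). Interferon regulatory factors (IRFs) are transcription factors that are themselves induced and carry the response further. In liver, hepatocytes, Kupffer cells and endothelial cells can all respond to interferons. In bulk liver RNA, fewer cells of a type and less RNA per cell cannot be told apart.

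The arrays were alike in scale, with a 2% trimmed mean signal of 1501 to within rounding on each, and each hepatocyte marker tested was far above background, Alb at 125084 to 199675 over the 6 arrays. Sham replicate 1 stood apart at low signals, with 12.5% of its probe sets at or under the floor of 152.7, the 25th percentile of all signals, against 24.4% to 31.3% on the other arrays. Signals under the floor were set to it before log2 was taken, and a probe set was tested when at least 3 of 6 arrays exceeded it. This left 9542 probe sets tested with limma, and 9 of the 11 member probe sets, for 8 of the 10 genes, were among them. Ifit2 and Ifit3 were not tested.

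One day after BDL, the interferon-induced genes and IRFs showed no difference from sham that exceeded the spread between mice. Of the 9 member probe sets tested, 0 passed an adjusted p of 0.05 in limma with Benjamini-Hochberg adjustment, against 0% of all 9542 probe sets, and their adjusted p lay between 0.832 and 0.995. At an unadjusted p under 0.05 there were also 0 member probe sets, against 5.78% of all tested. The BDL and sham signals overlapped for all 9 member probe sets tested, and also for those of Ifit2 and Ifit3. The groups did not overlap for 10.6% of all probe sets tested. With only 9 probe sets, counts of 0 lie near both shares and do not set the members apart. Among the 8 member genes tested, 4 differences were positive and 4 negative, with a median log2 difference of 0.01, beside 49.2% positive and a median of -0.01 over 6892 genes. The member differences ran from -0.42 for Usp18 to 1.24 for Irf1. What the values of these genes did show was a wide spread between mice of the same group, described below by gene.

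**Figure D1:**
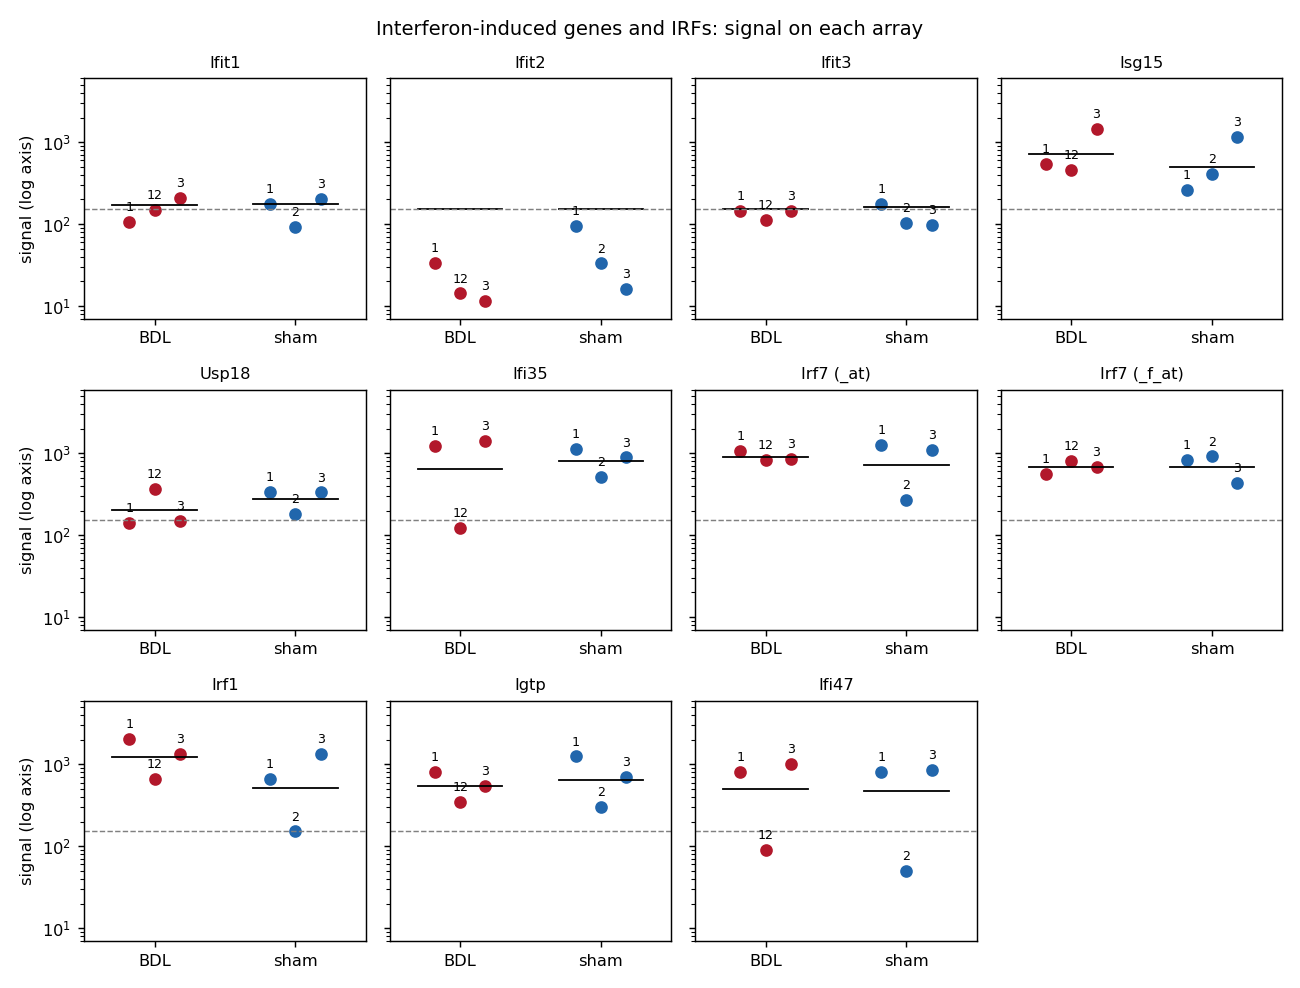
Signal of each member probe set (vertical log axis) in the 3 BDL mice, left in each panel, and the 3 sham mice, right; numbers beside the points are the replicate numbers, black lines are group means of log2 signals after the floor, and the dashed line is the floor of 152.7. The points of BDL and sham mice overlap in all 11 panels, Ifit2 lies under the floor on all 6 arrays, and Ifi47 drops under it in BDL replicate 12 and sham replicate 2.

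The IFIT genes, neighbours on chromosome 19, encode proteins that bind RNA lacking the marks of host transcripts and block its translation. The promoters of Ifit1, Ifit3 and Isg15 are shown because they hold letters of the ISRE, the element through which the type I pathway acts. No match to it was found for Ifit2. The windows are from RefSeq (GRCm38.p6), each 300 bases long, from 250 before the gene start to 50 after it, with ISRE matches in capitals: GAAA, any 2 bases and GAAA again, or TTTC in place of GAAA where the match is on the other strand. Ifit1 lies at chr19:34640639-34640938 on the plus strand, Ifit3 at chr19:34583279-34583578 on the plus strand and Isg15 at chr4:156200769-156201068 on the minus strand.
Ifit1: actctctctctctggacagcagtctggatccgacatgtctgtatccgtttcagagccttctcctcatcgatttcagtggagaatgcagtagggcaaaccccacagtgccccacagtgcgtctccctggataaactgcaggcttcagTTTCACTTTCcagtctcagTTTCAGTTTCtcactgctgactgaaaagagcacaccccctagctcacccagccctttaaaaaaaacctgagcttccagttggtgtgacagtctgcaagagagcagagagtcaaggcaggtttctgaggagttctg
Ifit3: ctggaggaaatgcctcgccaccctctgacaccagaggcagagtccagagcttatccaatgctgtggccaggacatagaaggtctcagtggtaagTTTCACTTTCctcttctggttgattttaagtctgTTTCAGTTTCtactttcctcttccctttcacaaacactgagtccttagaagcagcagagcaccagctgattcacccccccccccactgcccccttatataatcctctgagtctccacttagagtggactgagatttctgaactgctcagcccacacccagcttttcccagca
Isg15: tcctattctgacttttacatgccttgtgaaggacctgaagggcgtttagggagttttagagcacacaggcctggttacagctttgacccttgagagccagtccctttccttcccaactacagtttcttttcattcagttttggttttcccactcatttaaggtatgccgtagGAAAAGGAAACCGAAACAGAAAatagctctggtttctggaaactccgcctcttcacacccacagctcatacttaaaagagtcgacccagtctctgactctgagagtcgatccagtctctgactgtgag
The Ifit1 matches begin 104 and 85 bases before the gene start and the Ifit3 matches 156 and 122 bases before it. In Isg15, 3 matches that overlap each other begin 78, 72 and 66 bases before the start.

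Ifit1 was close to the floor in every mouse. Its signals were 106, 148 and 208 in BDL replicates 1, 12 and 3, against 177, 91.6 and 202 in sham replicates 1, 2 and 3. Only BDL replicate 3 and sham replicates 1 and 3 exceeded the floor, and the log2 difference was -0.06 (SE 0.29, n = 3 each; limma adjusted p = 0.982). The floor narrows this spread: with a floor of 51.6, below all 6 signals, the SE was 0.42 and the difference was nearer to 0.

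Ifit2 was lower still, with signals of 33.8, 14.2 and 11.6 in BDL mice and 93.9, 33.0 and 16.0 in sham mice, all under the floor. Ifit3 had signals of 146, 111 and 144 in BDL mice, all under the floor, and 177, 102 and 98.7 in sham mice, where only replicate 1, where low signals were raised, exceeded it. Neither gene has a fold change here, since a signal under the floor cannot be told from an absent one. The groups overlapped for both.

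Isg15, a ubiquitin-like protein that is attached to other proteins during the type I response, was above the floor in all mice. Its signals were 541, 464 and 1441 in BDL replicates 1, 12 and 3, against 263, 406 and 1153 in sham replicates 1, 2 and 3. Replicate 3 was the highest mouse of each group, and it was the spread within groups, 3.11-fold in BDL and 4.39-fold in sham, that exceeded the 1.43-fold difference between the group means. The log2 means were 9.48 ± 0.89 in BDL and 8.96 ± 1.10 in sham (SD, n = 3 each), a difference of 0.52 (SE 0.61; limma adjusted p = 0.898). The difference was 0.01 without BDL replicate 3, 0.06 without sham replicate 1 and 1.12 without sham replicate 3.

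Usp18, the protease that removes ISG15 from proteins and also damps signalling at the type I receptor, did not follow Isg15. It had signals of 141, 368 and 150 in BDL replicates 1, 12 and 3, against 339, 181 and 333 in sham replicates 1, 2 and 3. BDL replicates 1 and 3 were under the floor, all sham mice were above it, and the highest value of all was BDL replicate 12. The log2 difference was -0.42 (SE 0.44, n = 3 each; limma adjusted p = 0.885). It was -0.84 without BDL replicate 12 and -0.20 without either of the other BDL mice. With the replicate number as a block it was -1.14 (adjusted p = 0.650 in limma). That fit takes the difference from replicates 1 and 3 of each group only, so BDL replicate 12 does not enter it.

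Ifi35, an interferon-induced leucine zipper protein, had 1 mouse far below the rest. Its signals were 1242, 122 and 1420 in BDL replicates 1, 12 and 3, against 1131, 510 and 891 in sham replicates 1, 2 and 3. BDL replicate 12 was under the floor while the other BDL mice were above every sham mouse. The log2 means were 9.33 ± 1.80 in BDL and 9.65 ± 0.59 in sham (SD, n = 3 each), a difference of -0.31 (SE 0.79; limma adjusted p = 0.954). Without BDL replicate 12 the difference was 0.73, with an opposite sign (limma adjusted p = 0.910).

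Irf7, the factor known for driving most interferon-alpha genes once it is induced, had a pair of probe sets that disagreed. For the first (suffix _at) the signals were 1076, 821 and 858 in BDL replicates 1, 12 and 3, against 1271, 272 and 1097 in sham replicates 1, 2 and 3. The BDL mice were close together and lay within the sham range, which sham replicate 2 widened to 4.67-fold. The difference was 0.33 (SE 0.55, n = 3 each; limma adjusted p = 0.931), and -0.37 without sham replicate 2. For the second (suffix _f_at) the signals were 565, 816 and 678 in BDL mice and 826, 916 and 433 in sham mice, a difference of -0.02 (SE 0.36; limma adjusted p = 0.995). Here sham replicate 2 was the highest mouse of all, where the first probe set gave it as the lowest. Over the 6 arrays the Pearson correlation between the probe sets was -0.54. The letter f of the second marks probes shared with related sequences.

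The 3 interferon-gamma targets are Irf1, a transcription factor induced early in the response, and Igtp and Ifi47, immunity-related GTPases that act at membranes around intracellular pathogens. All 3 lie on chromosome 11. Their promoter windows are shown because these are the members known as targets of interferon-gamma. They are RefSeq windows (GRCm38.p6) of the plus strand, for Irf1 chr11:53769764-53770063, for Igtp chr11:58199306-58199605 and for Ifi47 chr11:49076337-49076636. Capitals mark the ISRE letters as above and the GAS letters TTCNNNGAA, which read the same on both strands.
Irf1: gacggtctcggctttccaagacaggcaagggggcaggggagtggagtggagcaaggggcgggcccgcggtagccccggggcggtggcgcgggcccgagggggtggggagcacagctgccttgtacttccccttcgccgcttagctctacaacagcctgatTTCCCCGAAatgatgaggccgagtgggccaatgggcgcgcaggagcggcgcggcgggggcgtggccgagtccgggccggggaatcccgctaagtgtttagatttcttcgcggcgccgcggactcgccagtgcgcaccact
Igtp: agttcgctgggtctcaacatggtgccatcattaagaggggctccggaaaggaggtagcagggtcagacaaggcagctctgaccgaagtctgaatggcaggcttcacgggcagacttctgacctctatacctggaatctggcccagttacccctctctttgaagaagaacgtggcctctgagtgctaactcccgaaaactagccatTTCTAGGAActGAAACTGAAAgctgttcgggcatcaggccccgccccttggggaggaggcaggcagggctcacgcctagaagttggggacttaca
Ifi47: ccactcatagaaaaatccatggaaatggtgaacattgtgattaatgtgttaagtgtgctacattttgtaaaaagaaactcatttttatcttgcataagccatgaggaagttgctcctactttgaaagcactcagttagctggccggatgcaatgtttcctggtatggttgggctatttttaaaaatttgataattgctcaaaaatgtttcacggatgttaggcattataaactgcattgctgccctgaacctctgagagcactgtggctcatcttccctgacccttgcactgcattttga
Irf1 has a GAS match that begins 90 bases before the start. Igtp has a GAS match that begins 45 bases before the start and an ISRE match that begins 34 bases before it, and these do not overlap. The Ifi47 window holds neither set of letters.

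Irf1 had the largest difference between the groups among the member probe sets tested. Its signals were 2034, 667 and 1336 in BDL replicates 1, 12 and 3, against 666, 152 and 1342 in sham replicates 1, 2 and 3. Sham replicate 2 was the lowest mouse, just under the floor, and sham replicate 3 lay above BDL replicates 12 and 3. The log2 means were 10.25 ± 0.81 in BDL and 9.01 ± 1.60 in sham (SD, n = 3 each), a 2.37-fold difference (log2 1.24, SE 0.75, 95% interval -0.46 to 2.95; limma adjusted p = 0.832). The sign was positive with each array left out in turn. The size rested on sham replicate 2: without it the difference was 0.37 (limma adjusted p = 0.895).

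Igtp had signals of 808, 352 and 552 in BDL replicates 1, 12 and 3, against 1251, 301 and 709 in sham replicates 1, 2 and 3. The lowest mice were BDL replicate 12 and sham replicate 2, and the BDL values lay inside the sham range. The difference was -0.26 (SE 0.54, n = 3 each; limma adjusted p = 0.947), 0.05 when BDL replicate 12 was left out, 0.22 for sham replicate 1 and -0.80 for sham replicate 2.

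Ifi47 split the mice most sharply. Its signals were 801, 89.6 and 1010 in BDL replicates 1, 12 and 3, against 813, 49.6 and 855 in sham replicates 1, 2 and 3. In each group 1 mouse was under the floor and the other mice were between 801 and 1010, so the lowest of the higher values was at least 5.25 times the floor. The log2 means were 8.96 ± 1.49 in BDL and 8.89 ± 1.41 in sham (SD, n = 3 each), a difference of 0.07 (SE 0.85; limma adjusted p = 0.992). The difference was 0.93 without BDL replicate 12 and -0.74 without sham replicate 2.

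**Figure D2:**
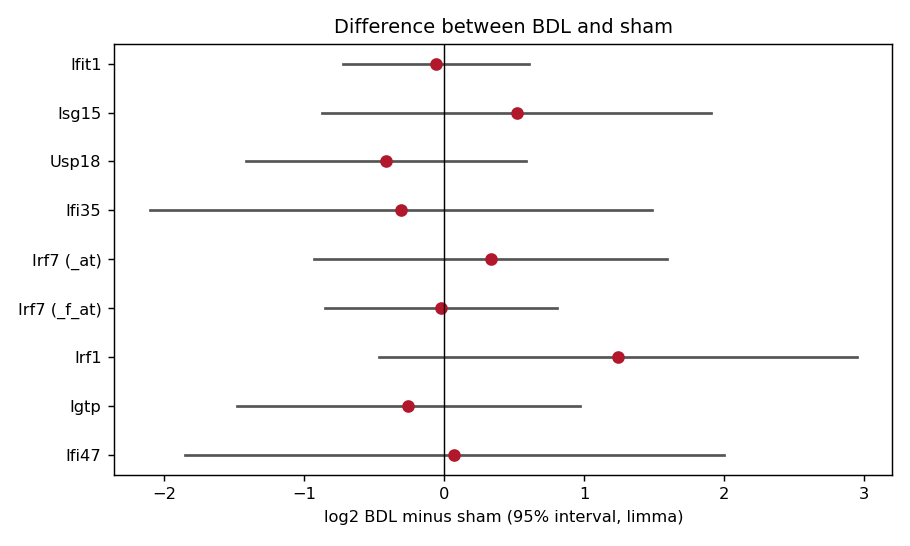
Log2 difference, BDL minus sham, for the 9 member probe sets tested (points) with the 95% interval from limma (lines). Every interval includes 0; the interval for Irf1 runs from -0.46 to 2.95, and those for Ifi35 and Ifi47 reach beyond 1 on both sides.

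The intervals set what these 6 arrays could show. The SE of the member differences was 0.29 to 0.85, against a median of 0.36 over all tested probe sets. For Ifi35 the 95% interval ran from -2.11 to 1.48, and for Isg15 from -0.87 to 1.91. Differences of 2-fold, which are 1 on the log2 scale, lie inside the intervals of 7 of the 9 member probe sets in at least 1 direction, so their absence was not shown.

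The spread between mice of a group was wide for 6 of the 8 member genes tested, with Irf7 counted by its _at probe set only. The within-group SD on the log2 scale was 1.45 for Ifi47, 1.34 for Ifi35 and 1.27 for Irf1, against a median of 0.44 over all tested probe sets. It exceeded that of 99.3% of the 1876 probe sets with a mean log2 signal within 0.5 of that of Ifi47. The same share was 98.9% for Ifi35, 98.4% for Irf1, 93.1% for Isg15, 91.5% for Irf7 (_at) and 85.2% for Igtp. It was 66.2% for Usp18, 45.0% for the other Irf7 probe set (_f_at) and 9.74% for Ifit1, where the floor narrows the spread.

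The low values fell mostly on the same mice. BDL replicate 12 was the lowest BDL mouse for 6 of the 8 genes (all but Ifit1 and Usp18), against 37.5% of all tested probe sets. Sham replicate 2 was the lowest sham mouse for 7 of the 8 (all but Isg15), against 28.1% of all tested probe sets. Irf7 enters these counts, the means and the correlations below by its _at probe set, and its _f_at probe set has both of these mice as the highest of their groups. The mean of the 8 genes, each centred on its mean over the 6 arrays, stood at 0.35, -0.60 and 0.46 for BDL replicates 1, 12 and 3, against 0.28, -1.03 and 0.53 for sham replicates 1, 2 and 3. The split was wider for Irf1, Igtp and Ifi47 alone, at 0.85, -0.89 and 0.57 in BDL mice and 0.53, -1.67 and 0.61 in sham mice.

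Pairs of member genes mostly varied in the same direction over the 6 arrays, which share the mice, the RNA and the hybridisation. Of 28 pairs among the 8 genes, 23 had a positive Pearson correlation, with a median of 0.43. Ifi35 with Ifi47 had the highest, 0.88, followed by Irf1 with Irf7 at 0.85 and Ifi47 with Igtp at 0.82. Usp18 stood outside this pattern, with correlations from -0.50 to 0.35. These are descriptions over 6 points.

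**Figure D3:**
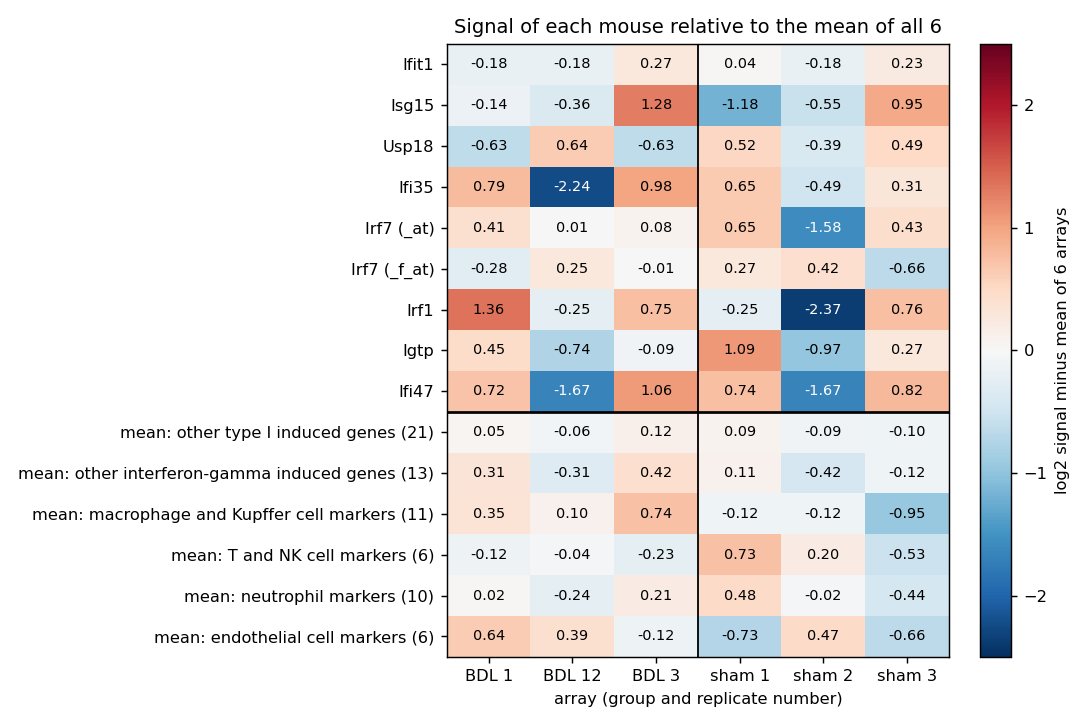
Log2 signal of each array minus the mean of the 6 arrays (colour and printed value), BDL mice in the left columns and sham mice in the right; rows above the line are the member probe sets tested, and rows below it are means over other interferon-induced genes and cell type markers, with the number of genes in brackets. Ifi47, Igtp, Irf1 and Ifi35 are below 0 in both BDL replicate 12 and sham replicate 2. The mean of the other interferon-gamma induced genes is lowest on the same arrays, at -0.31 and -0.42. That of the other type I induced genes stays within 0.12 of 0 on every array, and a mean over genes can hide single genes that vary.

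Markers of blood and liver cells were set beside this pattern. Of 13 macrophage and Kupffer cell markers with a name on the array, 11 were tested. Positive differences were found for 9 of them and negative ones for 2, with a median of 0.89 and 0 past the adjusted threshold. At an unadjusted p under 0.05 in limma, 3 were higher and 0 lower, where 3.4% of all tested probe sets were higher. C1qb counted as negative at -0.29 (SE 0.29), but its other probe set differed by 1.77 (SE 0.54), with the groups apart. Csf1r counted as positive at 0.40 (SE 0.37), but its other probe set differed by -0.07 (SE 0.44). The centred mean of the 11 stood at 0.35, 0.10 and 0.74 for BDL replicates 1, 12 and 3, against -0.12, -0.12 and -0.95 for sham replicates 1, 2 and 3. Thus sham replicate 3, which was high for the interferon genes, was lowest here. The summed signal of all 13 ranged from 17215 to 40977 in BDL and from 7961 to 15147 in sham. Cd14, the co-receptor for endotoxin, gave much of it in BDL replicates 12 and 3 and a smaller part on the other arrays. The Cd14 signals were 1873, 29692 and 15816 in BDL mice and 717, 4568 and 1176 in sham mice. Adgre1, the F4/80 antigen, was lowest in BDL replicate 12 and sham replicate 2 by 1 of its probe sets, with signals of 337, 51.0 and 243 in BDL mice and 576, 129 and 211 in sham mice. Its other probe set did not have this order, with signals of 141, 79.1 and 64.4 in BDL mice and 262, 248 and 85.5 in sham mice. Lyz2, macrophage lysozyme, was low in BDL replicate 12 but alike in sham replicates 2 and 3, with 970, 205 and 1614 in BDL mice and 589, 242 and 220 in sham mice. Cd68 and Cd14 went the other way, with BDL replicate 12 and sham replicate 2 the highest mice of their groups. Cd68 had signals of 1681, 2354 and 1431 in BDL mice and 849, 1797 and 588 in sham mice.

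Markers of T and NK cells, the source of interferon-gamma, were low for the most part. Of 14 on the array 8 were not tested, and Cd8a and Ncr1 were under the floor on all 6 arrays. Others exceeded it on every array, such as Cd4, at 327 to 745 in BDL and 204 to 1374 in sham, and Gzmb, at 205 to 338 in BDL and 190 to 556 in sham. The summed signal of all 14 ranged from 2124 to 2358 in BDL and from 1552 to 4927 in sham. The 6 tested had a centred mean of -0.12, -0.04 and -0.23 in BDL mice and 0.73, 0.20 and -0.53 in sham mice, so BDL replicate 12 and sham replicate 2 were not the low arrays. The part of cell composition in the spread of the interferon genes was not tested.

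Of the interferons themselves, 9 genes were on the array. Ifng, the gene of interferon-gamma, was under the floor in all mice, at 28.4, 26.7 and 62.0 in BDL and 70.2, 53.3 and 33.9 in sham. Ifnb1, the gene of interferon-beta, had signals of 154, 218 and 199 in BDL mice against 975, 175 and 267 in sham replicates 1, 2 and 3, a difference of -0.92 (SE 0.58, n = 3 each; limma adjusted p = 0.832). The 7 ligand genes tested all had negative differences, with a median of -0.71, and 0 passed the adjusted threshold. At an unadjusted p under 0.05, 1 was lower and 0 higher, where 2.39% of all tested probe sets were lower. That one was Ifna2, an interferon-alpha gene, with signals of 293, 369 and 483 in BDL mice and 1347, 919 and 489 in sham mice (difference -1.18, SE 0.42; limma adjusted p = 0.832). Sham replicate 1, where low signals were raised, was the highest mouse for all 7, and without it the median was -0.20. The tested interferon-alpha probe sets carry the suffix f and can share signal between members of that family.

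Receptors and kinases of the pathway were measured in 8 genes, of which 7 had positive differences, beside 49.2% of all genes tested. The median was 0.46, with 0 past the adjusted threshold. It was 0.24 without BDL replicate 3, 0.27 without sham replicate 1 and between 0.49 and 0.59 without each of the other arrays. Jak1, the kinase that both receptors share, had signals of 3049, 2637 and 3288 in BDL mice and 1081, 2320 and 2208 in sham mice, with the groups apart (difference 0.75, SE 0.36, n = 3 each; limma adjusted p = 0.832). Tyk2, its partner at the type I receptor, differed by 0.73 (SE 0.35) and Ifnar1 by 0.52 (SE 0.37), both with overlapping groups. Irf9, the DNA-binding part of the type I complex, was the negative one, at -0.33 (SE 0.48).

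Among the other IRFs, Irf5, known for its role in macrophages, had signals of 1114, 961 and 1185 in BDL mice and 524, 799 and 789 in sham mice. These groups were apart, with a difference of 0.65 (SE 0.30, n = 3 each; limma adjusted p = 0.832). Irf3, which responds to viral nucleic acid without being induced, differed by 0.12 (SE 0.36), and Irf8, a factor of myeloid cells, by -0.19 (SE 0.42). Irf4, a lymphocyte factor, was not tested.

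Of the sensors and adaptors that lead to interferon production, 4 were tested and all had positive differences, from 0.21 for Myd88 to 0.97 for Ikbke, with 0 past the threshold and overlapping groups. Ikbke, a kinase that activates IRF3 and IRF7, had signals of 1556, 450 and 3393 in BDL mice and 592, 405 and 1318 in sham mice, so BDL replicate 12 and sham replicate 2 were the low mice here too.

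Among 21 other type I induced genes tested, 13 differences were positive and 8 negative, with a median of 0.16. Over all probe sets 0 passed, and at an unadjusted p under 0.05, 2 were higher and 0 lower, where 3.4% of all tested probe sets were higher. Ly6e, a membrane protein of the Ly6 family, entered the count by a probe set with suffix _f_at, whose probes can be shared with related sequences. Its signals were 39782, 16772 and 45026 in BDL mice and 10281, 9948 and 14032 in sham mice. All BDL mice lay above all sham mice, with a difference of 1.46 (SE 0.42, n = 3 each; limma adjusted p = 0.827). Its other probe set (suffix _r_at) was under the floor in all BDL mice, at 68.4 to 107, and at 113 to 246 in sham mice, and does not bear out this order. Ifi204, an interferon-induced protein of the PYHIN family, entered the count by a probe set that differed by 0.23 (SE 0.40). Another of its probe sets (suffix _f_at) had signals of 295, 242 and 561 in BDL mice and 70.0, 50.2 and 88.9 in sham mice. All sham mice were under the floor, so it was tested only through the BDL mice and its sham SD was set to 0. Its difference of 1.16 (SE 0.36, limma adjusted p = 0.832) is therefore no support for a change. A further probe set (suffix _r_at) was under the floor in all BDL mice, at 56.0 to 144, and had 224.5, 3.2 and 14.2 in sham mice. Rsad2, the antiviral enzyme viperin, had signals of 654, 339 and 982 in BDL mice and 257, 216 and 403 in sham mice (difference 1.09, SE 0.44; limma adjusted p = 0.832). Only sham replicate 3 overlapped with the BDL mice. Ifitm2, which restricts virus entry, differed by -1.21 (SE 0.57), Samhd1, which breaks down nucleotides, by -0.59 (SE 0.40), Daxx by -0.58 (SE 0.37) and Eif2ak2, the RNA-activated kinase PKR, by -0.48 (SE 0.32). Mx1, a classical marker of the type I response, was under the floor in all mice, at 10.7 to 17.9 in BDL and 38.4 to 60.5 in sham.

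Among 13 other interferon-gamma induced genes tested, 9 differences were positive and 4 negative, with a median of 0.26, and 0 passed. The median was 0.05 without BDL replicate 3 and 0.06 without sham replicate 2. Icam1, an adhesion molecule for leukocytes that is also induced by other cytokines, was the 1 gene at an unadjusted p under 0.05. Its signals were 1014, 237 and 1304 in BDL mice and 200, 290 and 315 in sham mice, with BDL replicate 12 inside the sham range (difference 1.37, SE 0.60, n = 3 each; limma adjusted p = 0.832). Cxcl10, a chemokine for T cells, differed by 0.99 (SE 0.50), with signals of 694, 184 and 387 in BDL mice and 273, 34.4 and 99.9 in sham mice. Iigp1, a GTPase of the same family as Igtp and Ifi47, had signals of 12133, 24210 and 14013 in BDL mice and 9983, 8145 and 14249 in sham mice. For Iigp1 BDL replicate 12 was the highest mouse, unlike for Igtp and Ifi47, and the difference was 0.61 (SE 0.37; limma adjusted p = 0.832). Ido1 differed by 0.66 (SE 0.57), Cxcl9 by 0.39 (SE 0.36) and Gbp3 by -0.40 (SE 0.36), all with overlapping groups.

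Of the inhibitors of the pathway, 5 were tested and 4 had positive differences, with 0 past the adjusted threshold. Ptpn2, a phosphatase that inactivates JAK1, had signals of 438, 617 and 735 in BDL mice and 152, 283 and 425 in sham mice. The groups were apart, with a difference of 1.14 (SE 0.42, n = 3 each; limma adjusted p = 0.832). Socs1, the main inhibitor of interferon-gamma signalling, had signals of 689, 427 and 512 in BDL mice and 1052, 417 and 157 in sham mice, a difference of 0.37 (SE 0.61). Socs3, which acts chiefly on interleukin-6 signals, differed by 0.72 (SE 0.57) and, by its other probe set, by 1.38 (SE 0.73).

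The genes whose log2 signals were most like the mean of the 8 member genes over the 6 arrays, by Pearson correlation, were Irgm2 (0.99), Immp1l (0.99), Lcp1 (0.99), Yipf5 (0.99) and Trappc12 (0.98). With 6 points, 116 of 6884 other genes had a correlation above 0.9, so this ranking is loose. Irgm2, an interferon-gamma induced GTPase of the family of Igtp and Ifi47, had signals of 1666, 784 and 2237 in BDL replicates 1, 12 and 3, against 1569, 521 and 2069 in sham replicates 1, 2 and 3. Its low mice were BDL replicate 12 and sham replicate 2. Lcp1, an actin-bundling protein of leukocytes, had signals of 3347, 1908 and 4129 in BDL mice and 3735, 1549 and 3957 in sham mice, in the same order of mice within each group.

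**Figure D4:**
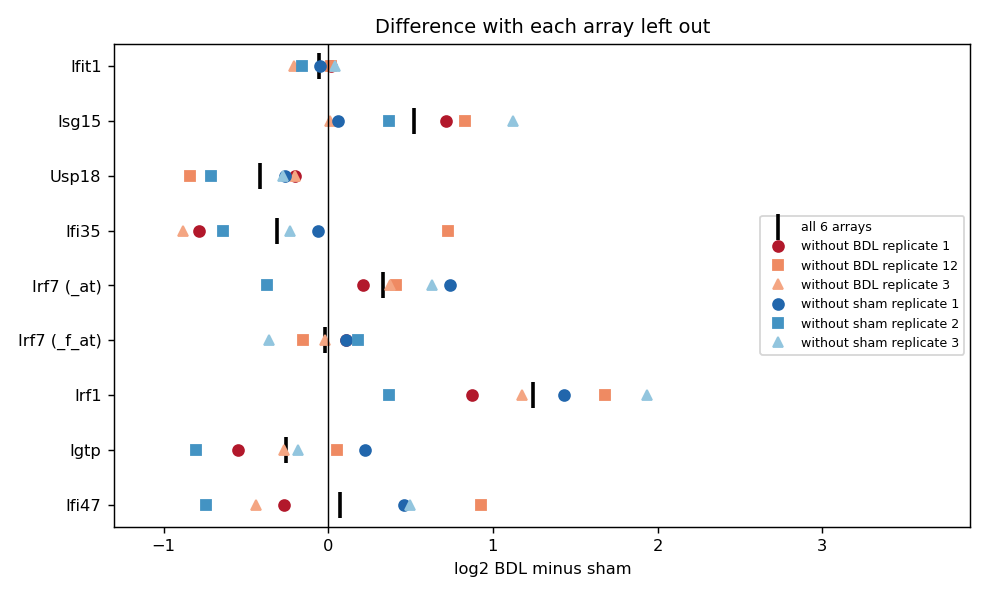
Log2 difference, BDL minus sham, of each member probe set tested with all 6 arrays (black bar) and with each array left out (red shades for BDL, blue shades for sham). Only Irf1, Isg15 and Usp18 keep 1 sign throughout; Irf1 is at 0.37 without sham replicate 2, and Ifi47 moves between -0.74 and 0.93.

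Promoter windows were found in the RefSeq table for 9 of the 10 members, Usp18 being the exception, and 2 motifs were searched on both strands. An ISRE match (GAAA, any 2 bases, GAAA) was present for 4 of the 9 (Ifit1, Ifit3, Isg15 and Igtp), against 3.44% of all 32851 windows and 3.99% of 27025 genes. A GAS match, TTCNNNGAA, was present for 4 of the 9 (Ifit2, Ifi35, Irf1 and Igtp), against 8.3% of windows and 9.55% of genes. Igtp held both. Among Ifi47, Ifi35, Irf1, Irf7 (by its _at probe set) and Igtp, which had their lowest BDL value in replicate 12 and their lowest sham value in replicate 2, Ifi47 and Irf7 had neither motif, Ifi35 and Irf1 had GAS letters and Igtp had both. No motif was common to them. These matches are descriptions of the letters in the windows.

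**Figure D5:**
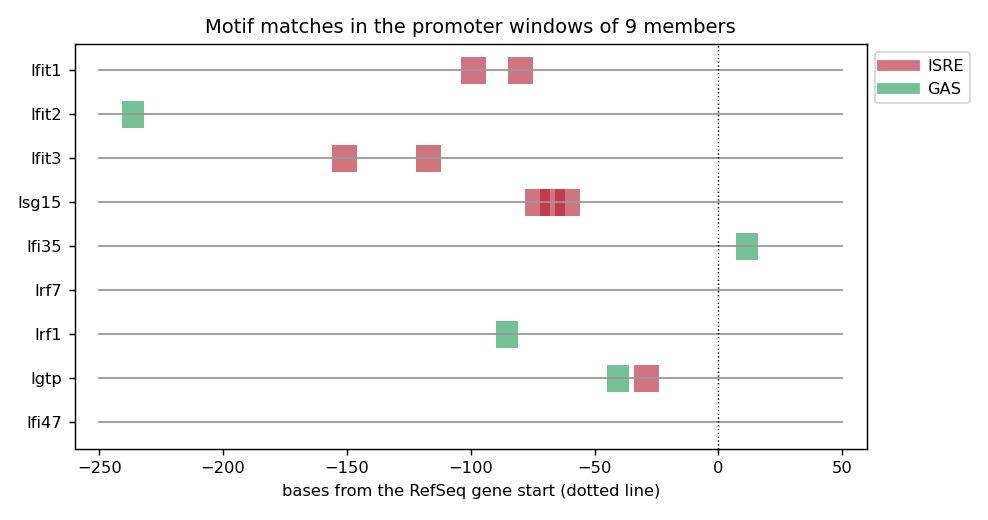
Position of ISRE (red) and GAS (green) matches in the promoter windows of 9 members, in bases from the RefSeq gene start (dotted line), using the first listed window of each gene. The ISRE matches of Ifit1, Ifit3, Isg15 and Igtp lie between 156 and 34 bases before the start, and the Irf7 and Ifi47 windows hold none of either motif.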

How the data were processed

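Liver RNA from 6 mice, 3 BDL and 3 sham, was hybridized to Affymetrix U74Av2 arrays, 1 mouse per array with 20 µg cRNA, per the labels and design text. The authors used MicroArray Suite and GeneChip expression software, per the series' design text; neither labels nor design text give the scaling target, the background step or detection calls. The deposited intensity values are linear signals, 1 per probe set and array, all above 0 and with equal trimmed means, and were kept without further scaling.

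Groups and replicate numbers came from the sample titles. Of 12488 probe sets, 66 were controls, 10833 had 1 gene symbol, 396 several and 1193 none; only those with 1 were named, updated to RefSeq GRCm38.p6. Signals were floored at 152.7, tested where at least 3 of 6 arrays exceeded this, and compared on the log2 scale with limma 3.58.1 in R 4.3.3 (lmFit, eBayes, 4 residual and 4.67 prior degrees of freedom), adjusted by Benjamini-Hochberg over 9542 probe sets. SE is limma's moderated standard error. A gene with several probe sets was represented in counts by that with the highest mean log2 signal. The members and gene lists were chosen with earlier results of these data known. Named genes were all members, any gene of the ligand, receptor, IRF, sensor and inhibitor lists, of which some are given only by counts, up to 6 genes with the smallest unadjusted p of the other induced lists, and the 5 genes most like the member mean. Ifi204, Mx1 and single markers were named after their values were seen. The number of arrays limits the precision. Neither labels nor file name a batch.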

Additional observations from a re-analysis of the deposited data

How the results depend on the processing

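Across 17 alternatives (normalization, floor, added constant, filter, variance model, array weights, each array left out, replicate block), 0 member probe sets passed the adjusted threshold, with a lowest limma adjusted p of 0.361 for Irf1 without sham replicate 3. At an unadjusted limma p under 0.05, the member count was 1 with array weights (Irf1, 0.012), without sham replicate 3 (Irf1, 0.025) and with the replicate block (Usp18, 0.023). Over all probe sets these settings gave 1023, 1176 and 651, against 552 in the main fit. The count of all probe sets past the adjusted threshold was 0 under 16 alternatives and 3 with no filter, where floored probe sets enter. The median member difference lay between -0.50 without sham replicate 2 and 0.57 without BDL replicate 12. None of the 15 alternatives that gave a median moved it by more than the within-group SD of the array medians, 0.61. The filter settings kept the same member genes for the median and could not move it, and the variance and weight settings gave none.

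Signs were not stable. With the floor at the 40th percentile, differences were 0.058 for Ifi35 and 0.034 for Usp18, and Ifit1 had no value, being at that floor on all arrays. Ifit1 and Usp18 had no value under the stricter filter. With array weights, differences were 0.50 for Ifi35, 0.10 for Ifit1, 0.38 for Igtp, 1.24 for Ifi47, 1.00 for Irf7 (_at) and 2.17 for Irf1. Leaving out 1 array at a time gave -0.88 to 0.73 for Ifi35, -0.21 to 0.042 for Ifit1, -0.37 to 0.74 for Irf7 (_at), -0.36 to 0.18 for its other probe set, -0.74 to 0.93 for Ifi47 and -0.80 to 0.22 for Igtp. Beyond arrays left out, the causes were not tested. Irf1 (0.37 to 2.17) and Isg15 (0.01 to 1.12) stayed positive in all alternatives.

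With the replicate block, Ifi35 was 0.40, Irf7 -0.30 (_at) and 0.0499 (_f_at), Usp18 -1.14, and 0 members passed. Only numbers 1 and 3 occur in both groups, which leaves 1 residual degree of freedom. BDL replicate 12 and sham replicate 2 each form a block of their own, so they do not enter these differences. Deviations from the group means correlated at 0.21 and 0.25 for the same-numbered arrays. For BDL replicate 12 with sham replicate 2, the arrays low for most members, they correlated at 0.29. The other 6 correlations were negative, but deviations cancel out within each group, so positive values in some pairs force negative ones in others. The labels do not say what a number marks or that 12 stands for 2. No fit paired BDL replicate 12 with sham replicate 2.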
